A study of Mus musculus with 9 samples.

Results

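Immediate early genes are the genes that a cell switches on within minutes of a stimulus, without first making new protein, and in neurons many of them follow electrical activity and calcium entry. A set of 37 such genes was described here in Neuro2A cells, a cultured mouse line derived from a neuroblastoma. The rule that finds them uses symbols and no measured value, although the list of names was drawn up with earlier results of these data known. Every array feature annotated to 1 of the 37 names was taken, and Ccn1 and Ccn2 stand for Cyr61 and Ctgf. All 37 were measured on both array designs, among 16504 named genes on 6 arrays and 19087 named genes on 3 arrays.

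The study asked which genes are regulated by CCAT, the C-terminal part of the L-type calcium channel CaV1.2, which can act in the nucleus as a transcription factor. Cells received, by lipid transfection, a PA1 plasmid coding for full-length CCAT, the last 503 amino acids of the channel (FL), or for the last 280 amino acids, a form without the activation domain that the labels call DTA or DTS and that was found to keep some activity (DTA). GFP-positive cells were sorted 24 hours later, and FL and DTA cells were each set against untransfected Neuro2A cells, sorted as well, on 3 two-colour Agilent arrays. On 3 arrays of a second design FL cells were set against cells that had received the empty PA1 vector, so that both channels shared plasmid and transfection. The replicate arrays are not said to come from separate cultures, so p-values measure the spread between these arrays, which may be technical. For DTA replicate 3 the labels disagree, since the truncated form stands in its title and source but the full-length form in its treatment text. Its ratios over named genes had a Pearson's r of 0.92 and 0.95 to the DTA replicates 1 and 2, and of 0.73 to 0.79 to FL replicates, and it was kept as DTA.

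All values below are log2 ratios, where 1 is a doubling, and no level in a single sample was used here, so the identity of the cells could not be checked from marker levels. The base of the deposited logs was inferred from the values of the first array design and assumed to be the same for the second, which carries the ratios against empty vector. A positive ratio was taken as higher in the CCAT channel, which is likely but not stated. The basis is that the plasmid alone raised some genes according to the design text, and that the interferon-induced chemokine gene Cxcl10 had 5.38 in FL cells and 5.54 in DTA cells against untransfected cells, but 0.23 in FL cells when the control had the empty vector. If the order is the reverse, every direction given here turns. On all 9 arrays Cy3 marked the CCAT cells and Cy5 the controls, so a dye effect of a gene cannot be told apart from its ratio. Because FL and DTA lay on separate arrays against the same kind of control cells, their ratios may also share a control RNA, which the labels do not settle.

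Members of the set encode transcription factors for the most part. Fos and Jun proteins pair to form AP-1, which binds a short DNA element in many growth and stress genes, and Egr and Klf proteins bind GC-rich elements through zinc fingers. Calcium entering through L-type channels activates kinases that act on CREB, which binds the cyclic AMP response element (CRE), on SRF with its partner factors, and on MEF2 at the promoters of such genes. Others encode small regulators that end or shape the response, such as Ier3 or the mRNA decay factor Zfp36, and effectors at the synapse, such as Arc and Homer1.

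The 4 members with the largest mean size of change over FL and DTA against untransfected cells for which RefSeq gave a promoter (assembly GRCm38.p6) were Klf2, Ier3, Fosl2 and Jun. The 250 bases before each start site are shown for them to let the elements named above be seen in place. The promoter of Klf2 lies at chr8:72318812-72319061 on the plus strand, that of Ier3 at chr17:35821463-35821712 on the plus strand, that of Fosl2 at chr5:32136222-32136471 on the plus strand and that of Jun at chr4:95052223-95052472 on the minus strand. Capitals mark matches, on either strand, to the short CRE form TGACG, the Egr motif GCGGGGGCG or an NF-kappaB motif.
Klf2: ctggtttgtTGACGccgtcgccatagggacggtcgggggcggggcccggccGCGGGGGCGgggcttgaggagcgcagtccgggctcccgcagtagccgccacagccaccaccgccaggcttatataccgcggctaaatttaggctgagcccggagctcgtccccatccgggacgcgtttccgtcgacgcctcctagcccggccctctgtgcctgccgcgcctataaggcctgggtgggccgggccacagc
Ier3: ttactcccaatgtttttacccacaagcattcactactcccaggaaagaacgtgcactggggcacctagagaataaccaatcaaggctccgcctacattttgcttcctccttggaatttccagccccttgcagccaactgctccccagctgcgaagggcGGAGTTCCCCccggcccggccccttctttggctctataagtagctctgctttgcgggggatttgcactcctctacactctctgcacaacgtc
Fosl2: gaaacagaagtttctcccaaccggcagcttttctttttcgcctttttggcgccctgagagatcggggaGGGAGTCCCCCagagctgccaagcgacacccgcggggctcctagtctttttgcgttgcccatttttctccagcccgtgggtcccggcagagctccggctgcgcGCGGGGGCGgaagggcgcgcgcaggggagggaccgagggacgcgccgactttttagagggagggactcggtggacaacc
Jun: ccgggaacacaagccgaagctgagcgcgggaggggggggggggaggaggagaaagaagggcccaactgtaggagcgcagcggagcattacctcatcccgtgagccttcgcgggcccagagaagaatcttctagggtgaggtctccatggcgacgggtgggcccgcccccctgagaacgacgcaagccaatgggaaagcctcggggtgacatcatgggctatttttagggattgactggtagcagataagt
Klf2 held a short CRE form at -241 to -237 and an Egr motif at -199 to -191, counted from the start. Ier3 held an NF-kappaB match at -92 to -83, and Fosl2 held one at -182 to -172 and an Egr motif at -79 to -71. No searched motif was found in this window of Jun. Of the 37 members 26 had a promoter entry, and 18 of these (69.2%) held TGACG, against 17.8% of all 32851 promoters. GCGGGGGCG was found in 7 of the 26, against 2.57% of all promoters, and an NF-kappaB match in 8, against 7.25%. The full CRE TGACGTCA, which contains the short form, was found in 1 of 26 (Maff, against 1.55%), the AP-1 element TGACTCA in 1 (Csrnp1, against 4.46%), GCGTGGGCG in 1 (Maff, against 0.536%) and the TATA box TATAAA in 6 (against 12.4%). The CArG box bound by SRF was found in 3, Egr2, Srf and Zfp36, against 1.47% of all promoters. Members were counted by gene, with a match in any promoter entry of the gene, and all promoters by single entry. The shares are therefore not of the same unit, which favours members with several entries. These are matches of letters and were given no test, and a window without a match says only that the letters are not there.

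Against untransfected cells the set split into a group that rose and a smaller group that fell, with either construct. With FL 22 of the 37 members rose and 8 fell at an adjusted p under 0.05, where 34.7% of all genes were called higher and 35.1% lower (69.8% in all). With DTA 23 rose and 9 fell, where 35.7% of all genes were called higher and 36.1% lower (71.8% in all). Calls that also reached 1.5-fold were 9 higher and 2 lower with FL, or 24.3% and 5.41% of members, beside 5.19% and 3.28% of all genes (8.47% in all). With DTA they were 10 higher and 3 lower, or 27.0% and 8.11% of members, beside 6.8% and 3.87% of all genes (10.7% in all). The median ratio of the members was 0.14 with FL and 0.23 with DTA, and that of all genes was -0.0019 and -0.0061. Against empty vector 18 members rose and 10 fell, where 30.6% of all genes were called higher and 32.8% lower (63.4% in all), but 1 member, Egr1, reached 1.5-fold, where 0.461% of all genes were called higher and 1.67% lower by that rule (2.13% in all).

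Small ratios carried the calls that depended on a single array. With FL the calls of Ier2, Nr4a2, Nr4a3 and Zfp36, and with DTA those of Btg1, Ccn2, Fosl1 and Nr4a3, were lost when at least 1 array of the group was left out (ratios of 0.083 to 0.21 in size). Without FL replicate 3, the FL ratios of Ccn2, Maff and Srf and the DTA ratios of Csrnp1 and Srf were called as well, at 0.090 to 0.14 in size. Against empty vector the calls of Btg1, Ccn1, Egr4, Ier2, Klf4, Klf6, Klf10 and Per1 were lost without 1 array, at ratios of 0.060 to 0.15 in size, and Egr3 was called without replicate 2, at -0.22.

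**Figure D1:**
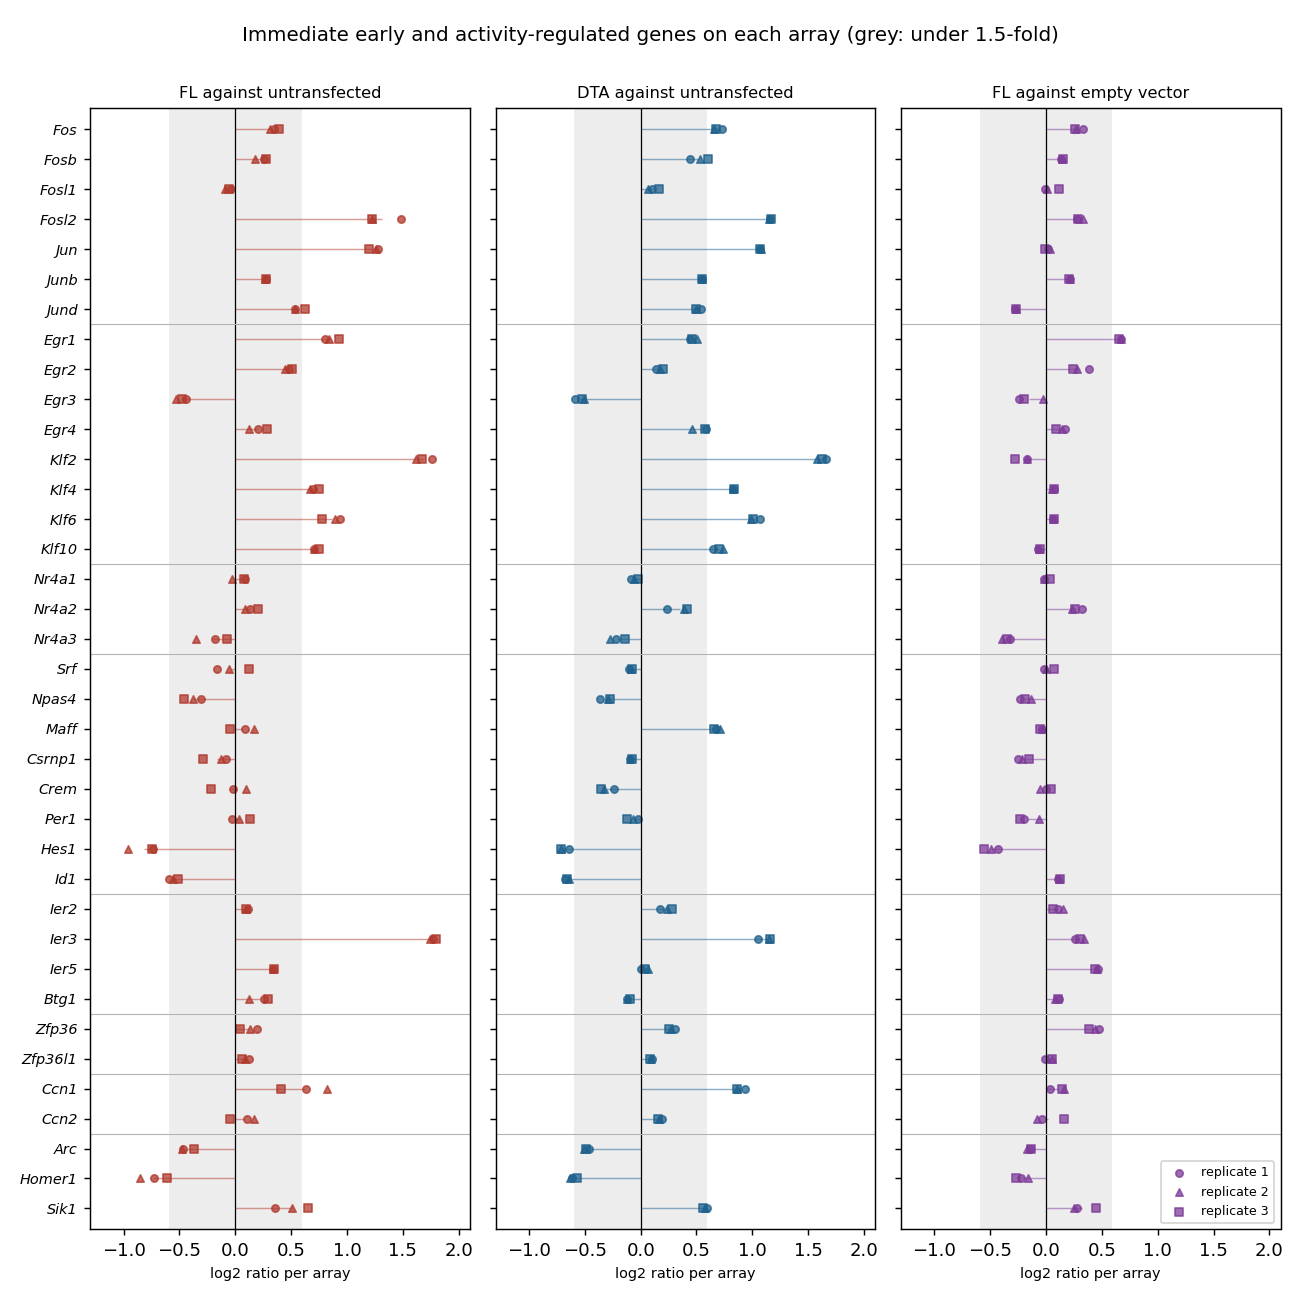
Log2 ratio of each of the 37 members on each array of the FL, DTA and empty-vector comparisons, with members in order of role. Klf2, Ier3, Fosl2 and Jun lie above 1 on all 6 arrays against untransfected cells and at 0.34 or below on all 3 arrays against empty vector.

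**Figure D2:**
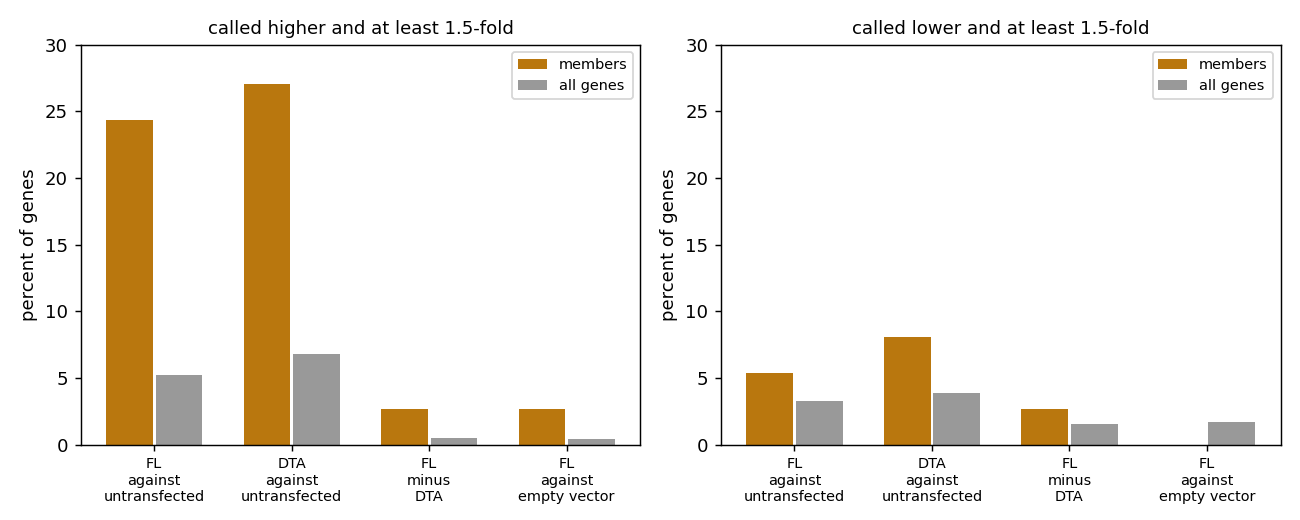
Percent of the 37 members and of all named genes that were called at an adjusted p under 0.05 and changed at least 1.5-fold, higher in the left panel and lower in the right panel, for each comparison. Members called higher make up 24.3% (FL) and 27.0% (DTA) where the control was untransfected, and 2.70% where it held the empty vector.

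Of the 7 AP-1 genes 6 rose with FL and 7 with DTA, and none fell. Among all genes 34.7% were called higher with FL and 35.7% with DTA. Fosl2, a Fos-family subunit that lacks a strong activation domain, had 1.48, 1.23 and 1.23 on the FL arrays and 1.15, 1.15 and 1.17 on the DTA arrays, a mean of 1.31 with FL (SE 0.054, adjusted p = 1.45e-05) and 1.16 with DTA (adjusted p = 1.55e-05). Jun, the partner in most AP-1 dimers, had 1.28, 1.26 and 1.20 on the FL arrays and 1.07, 1.08 and 1.07 on the DTA arrays. Both genes were more than doubled on all 6 arrays, and the 2 groups of arrays did not overlap for either. Such a gap was common, seen for 26% of all genes with FL above and 24% with FL below. The difference FL minus DTA of Fosl2, 0.155, did not pass the test (adjusted p = 0.172). Against empty vector Fosl2 had 0.27, 0.33 and 0.29 (adjusted p = 0.00247), and Jun had 0.014, 0.033 and -0.013, with a mean of 0.011 that did not pass the test (adjusted p = 0.593).

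Fos, the founding member of the family, was measured by 2 features that gave different values. The feature of the RefSeq transcript NM_010234 had 0.68, 0.61 and 0.77 on the FL arrays and 1.26, 1.08 and 1.18 on the DTA arrays. The feature of the sequence K02785 had 0.011, 0.0093 and 0.011 on the FL arrays and 0.20, 0.24 and 0.17 on the DTA arrays. Both features were lower with FL than with DTA, and they differed in size on every array. Averaged over them, Fos was at 0.35 with FL (SD 0.042) and 0.69 with DTA (SD 0.037, n = 3 each). Junb, a Jun protein that restrains Jun at some targets, rose by 0.27 with FL and 0.55 with DTA, Fosb by 0.23 and 0.53, and Jund by 0.56 and 0.51. Fosl1 was the 1 AP-1 gene without a call with FL, at -0.065 (adjusted p = 0.0647), and had 0.11 with DTA (adjusted p = 0.00952). Against empty vector Fosb, Junb and Fosl2 rose by 0.14 to 0.30, and Jund fell, at -0.27 (SD 0.0023). The Fos mean of 0.29 joined 2 features called in opposite directions, 0.75 for NM_010234 and -0.18 for K02785.

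The 8 zinc-finger genes held the most members past 1.5-fold, 5 with FL and 4 with DTA, all higher. Among all genes 5.19% were called higher by that rule with FL and 6.8% with DTA. Klf2, best known for its part in quiescence of endothelial cells and lymphocytes, had 1.76, 1.62 and 1.67 on the FL arrays and 1.66, 1.58 and 1.62 on the DTA arrays (adjusted p = 2.48e-06 and 2.47e-06). The FL and DTA arrays overlapped, with a difference of 0.064 (SE 0.047, adjusted p = 0.347). Klf4, one of the factors used to reprogram cells to pluripotency, had 0.69, 0.67 and 0.75 on the FL arrays and 0.83, 0.83 and 0.83 on the DTA arrays. Klf6, a growth regulator induced on injury, had 0.94, 0.90 and 0.77 with FL and 1.07, 0.99 and 1.00 with DTA as the mean of 2 features. Klf10, an early gene of the TGF-beta response, had 0.70, 0.70 and 0.75 with FL and 0.65, 0.74 and 0.70 with DTA. The 4 Klf genes were thus higher on all 6 arrays against untransfected cells. Against empty vector the 4 genes stood at 0.066 for Klf4, 0.065 for Klf6, -0.063 for Klf10 and -0.21 for Klf2, the last a mean of 2 features called in opposite directions, -0.78 and 0.37.

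The Egr genes did not move as 1 group. Egr1, a factor induced in neurons by synaptic activity and in many cells by growth factors, had 0.80, 0.84 and 0.93 on the FL arrays and 0.44, 0.51 and 0.46 on the DTA arrays. Every FL array was above every DTA array. It was also the 1 member that passed 1.5-fold against empty vector, with 0.67, 0.67 and 0.65 (SD 0.013, adjusted p = 0.00208). Egr2, a regulator of Schwann cell myelination, was at 0.48 with FL, 0.17 with DTA and 0.30 against empty vector, all called higher. Egr4 was at 0.20 with FL, 0.54 with DTA and 0.13 against empty vector, again all called higher. Egr3, which takes part in muscle spindle and lymphocyte development, went the other way and fell, to -0.49 with FL and -0.54 with DTA. Against empty vector its mean of -0.16 (adjusted p = 0.0699) joined 2 features that did not share a sign. That of NM_018781, which was also measured against untransfected cells, was called lower, at -0.51. That of AK141603 had 0.20 and was not called (adjusted p = 0.153).

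Among the 3 Nr4a genes, orphan nuclear receptors induced by cyclic AMP and calcium, each took its own course. Nr4a2, needed for dopamine neurons, rose by 0.14 with FL and 0.35 with DTA, as measured by NM_013613. Against empty vector its mean of 0.27 joined 2 features that did not share a sign. That of AK008679 was called higher, at 0.59. That of NM_013613 had -0.044 and was not called (adjusted p = 0.0917). Nr4a3 fell in all 3 comparisons, at -0.20 with FL, -0.21 with DTA and -0.36 against empty vector. Nr4a1 had 0.043 with FL, -0.057 with DTA and -0.00055 against empty vector, and passed no test.

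In the group of SRF and other regulators the calls were mostly downward, 4 of 8 with FL and 4 with DTA. Maff with DTA was the 1 call upward. Among all genes 35.1% were called lower with FL and 36.1% with DTA, so the downward share of this small group was not far from theirs. Hes1, the transcription repressor through which Notch keeps progenitors from differentiating, had -0.73, -0.96 and -0.74 on the FL arrays, -0.64, -0.71 and -0.72 on the DTA arrays and -0.43, -0.49 and -0.56 against empty vector. It was below 0 on all 9 arrays and fell in all 3 comparisons (adjusted p = 4.8e-05, 7.14e-05 and 0.00238). Id1, a helix-loop-helix protein that blocks differentiation factors, had -0.59, -0.56 and -0.51 on the FL arrays and -0.68, -0.64 and -0.66 on the DTA arrays, and fell with both. Against empty vector Id1 rose slightly, with 0.11, 0.12 and 0.12. Npas4, a factor induced mainly by neuronal activity and calcium, fell by 0.38 with FL and 0.31 with DTA, and by 0.18 against empty vector. Srf itself passed no test, at -0.031 with FL, -0.090 with DTA and 0.019 against empty vector.

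Maff, a small Maf protein that pairs with larger bZIP factors, separated the constructs. It had 0.091, 0.17 and -0.050 on the FL arrays, against 0.67, 0.71 and 0.66 on the DTA arrays. The FL mean of 0.070 did not pass the test (adjusted p = 0.186), though it did without FL replicate 3, at 0.13. The highest FL value was below the lowest DTA value. Against empty vector it had -0.040, -0.033 and -0.056 (adjusted p = 0.0725). Crem, whose products include the repressor ICER, fell with DTA at -0.31, and had -0.049 with FL. Csrnp1 fell with FL at -0.17, and the clock gene Per1 passed no test against untransfected cells and fell against empty vector at -0.17.

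Ier3, a small protein of the stress and survival response, was the highest member with FL. It had 1.77, 1.74 and 1.80 on the FL arrays and 1.05, 1.15 and 1.16 on the DTA arrays, with no overlap. Against empty vector it had 0.26, 0.34 and 0.31, a mean of 0.30 (SE 0.022, adjusted p = 0.00278). Ier5, a regulator of heat shock factor, rose by 0.34 with FL and 0.45 against empty vector, and had 0.035 with DTA (adjusted p = 0.174). Btg1, an antiproliferative protein, was called in opposite directions: it rose with FL at 0.22, and fell with DTA at -0.11. The call with DTA was lost when any 1 of the 3 DTA arrays was left out (values of -0.12 to -0.11). Ier2 rose by 0.099 with FL, 0.23 with DTA and 0.11 against empty vector. The last was a mean of 2 features, 0.27, called higher, and -0.052, not called.

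Zfp36, which binds AU-rich elements and hastens the decay of cytokine mRNAs, rose by 0.12 with FL, 0.28 with DTA and 0.43 against empty vector. Its relative Zfp36l1 rose by 0.089 with FL and 0.095 with DTA and had 0.036 against empty vector (adjusted p = 0.21). Ccn1, a secreted matrix protein and target of YAP and SRF, had 0.63, 0.82 and 0.41 on the FL arrays, 0.93, 0.87 and 0.87 on the DTA arrays and 0.038, 0.16 and 0.15 against empty vector. Its FL arrays were the most spread of any member (SD 0.21), and the mean of 0.62 became 0.52, under 1.5-fold, without FL replicate 2. Ccn2 had 0.077 with FL (adjusted p = 0.145) and rose by 0.17 with DTA.

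The 2 synaptic members fell against untransfected cells, Homer1 as measured by 1 feature, of the transcript NM_011982. Homer1, a scaffold of metabotropic glutamate receptors, had -0.73, -0.86 and -0.62 on the FL arrays and -0.62, -0.63 and -0.57 on the DTA arrays. Arc, which controls the uptake of AMPA receptors, was at -0.44 with FL, -0.48 with DTA and -0.15 against empty vector, called lower in each. Sik1, a kinase that restrains the CREB coactivators, rose by 0.50 with FL, 0.58 with DTA and 0.32 against empty vector. Against empty vector Homer1 had -0.23, -0.16 and -0.27 as the mean of 3 features that did not share a sign. The 2 features of NM_011982 were called lower, and that of NM_152134 was called higher, at 0.29.

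The full-length and truncated constructs lay on separate arrays, and were compared over these 6 arrays through their ratios to untransfected cells. A difference in control RNA, arrays or transfection cannot be told apart here from the part of CCAT that DTA lacks. Of the 37 members 6 were higher and 10 lower with FL than with DTA, where 18.2% of all genes were called higher and 16.1% lower (34.2% in all). The median difference was -0.006 for the members and 0.0026 for all genes, and the median size of a difference was 0.13 and 0.12. The members called higher were 16.2% of the set and those called lower 27.0%. The arrays of the 2 constructs did not overlap for 9 members with FL above and 13 with FL below, and over all genes this was so for 26% and 24%.

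The largest difference upward was that of Ier3, at 0.65 (SE 0.040, adjusted p = 0.000609), and the largest downward that of Maff, at -0.61 (SE 0.060, adjusted p = 0.00152). Without FL replicate 3 the difference of Maff was -0.55, under 1.5-fold. These 2 were the only members past 1.5-fold with all arrays, against 0.521% of all genes higher and 1.55% lower (2.07% in all), and no member was shown to differ by more than 1.5-fold when limma's treat tested against that size, with or without adjustment. Egr1 differed by 0.39, Btg1 by 0.34, Egr2 by 0.31, Ier5 by 0.30 and Jun by 0.17. Among AP-1 genes Jun was thus higher with FL, and Fos (-0.34), Fosb (-0.29), Junb (-0.28) and Fosl1 (-0.18) were lower. Egr1 and Egr2 were higher with FL and Egr4 lower (-0.34). No difference was called for Klf2, Klf6, Klf10, Fosl2 or Jund. After quantile normalization Klf2 and Fosl2 were called higher with FL, at 0.29 and 0.31. On the feature of largest size Klf6 was called lower, at -0.53. The other feature of Klf6 went the opposite way, with means of 1.00 with FL and 0.77 with DTA. Klf4 was slightly lower with FL (-0.13, adjusted p = 0.0287). The other calls downward were Nr4a2 (-0.21), Zfp36 (-0.15) and Ier2 (-0.13). The calls of Ier2, Klf4, Nr4a2 and Zfp36 were each lost when any of several single arrays was left out, and that of Fosl1 without DTA replicate 3, with adjusted p of 0.0552 to 0.139. Leaving out an FL array added calls for 5 members, Ccn1, Crem, Homer1, Id1 and Nr4a1.

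**Figure D3:**
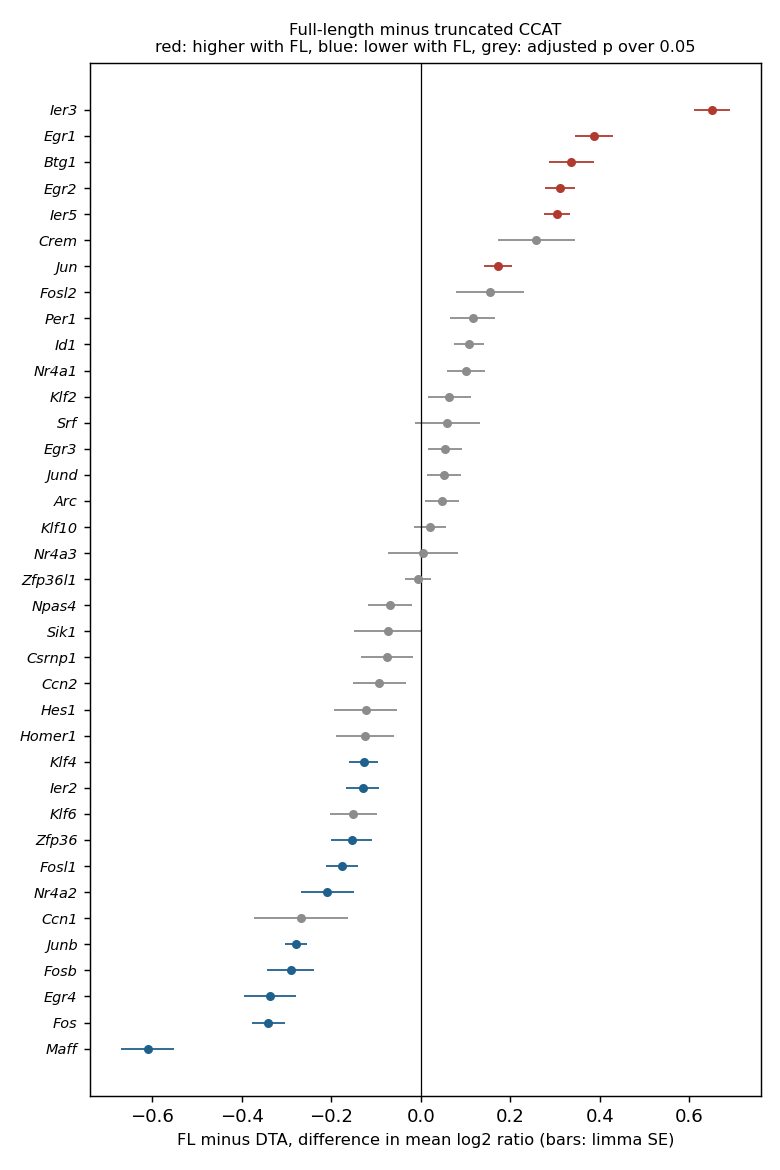
Difference in mean log2 ratio, FL minus DTA, for each of the 37 members, with bars of 1 standard error from limma and colour by call. Ier3 lies highest at 0.65 and Maff lowest at -0.61.

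Against empty vector, where plasmid and transfection were shared, the members moved little, and so did most genes. Of the 28 members called, 27 stayed under 1.5-fold. Among all genes 12107 were called, and 407 of these passed 1.5-fold. The median size of a ratio was 0.16 for the members and 0.14 for all genes. Limma's treat found no member past 1.5-fold after adjustment and 1, Egr1, without it. The members that had risen most against untransfected cells were at 0.30 (Ier3 and Fosl2), 0.01 (Jun), -0.21 (Klf2), 0.07 (Klf4), 0.06 (Klf6) and -0.06 (Klf10). The highest ratios here were those of Egr1 (0.67), Ier5 (0.45), Zfp36 (0.43) and Sik1 (0.32), and the lowest those of Hes1 (-0.49), Nr4a3 (-0.36) and Jund (-0.27). The platforms and controls of these comparisons differ, and the difference between them was not tested.

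On the 3 arrays against empty vector 16 members had several features. For 10 of the 16 the features had opposite signs, and the median range between features was 0.37. Among these, Crem, Csrnp1, Fos, Homer1 and Klf2 had features called in both directions. For Btg1, Egr3, Ier2, Nr4a2 and Zfp36l1 the feature of 1 sign was not called. The share of all genes whose features had opposite signs was not taken. Against untransfected cells 2 members, Fos and Klf6, had several features, with a median range of 0.47 with FL and 0.73 with DTA and no opposite signs. Klf2 had 2 features of the same accession, NM_008452, with -0.83, -0.80 and -0.72 on the first and 0.48, 0.47 and 0.17 on the second. The first lay below 0 on all 3 arrays and the second above it. Fos had 0.75, 0.80 and 0.70 on the feature of NM_010234 and -0.088, -0.26 and -0.18 on that of K02785. Homer1 had mean ratios of -0.63 and -0.32 on 2 features of NM_011982 and 0.29 on a feature of NM_152134. Csrnp1 ranged over 3 features of NM_153287 with -0.90, 0.0044 and 0.27. Nr4a2 had 0.59 and -0.044, Egr3 0.20 and -0.51, and Zfp36 0.67 and 0.20. Taking for each gene the feature of largest size put 7 members past 1.5-fold, in place of Egr1 alone. Those higher were Egr1, Fos, Nr4a2 and Zfp36, and those lower Csrnp1, Homer1 and Klf2. Choosing the largest ratio favours such calls for any gene with several features. The share of all genes past 1.5-fold by this rule was not taken. The positions of the features in their transcripts were not used here.

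**Figure D4:**
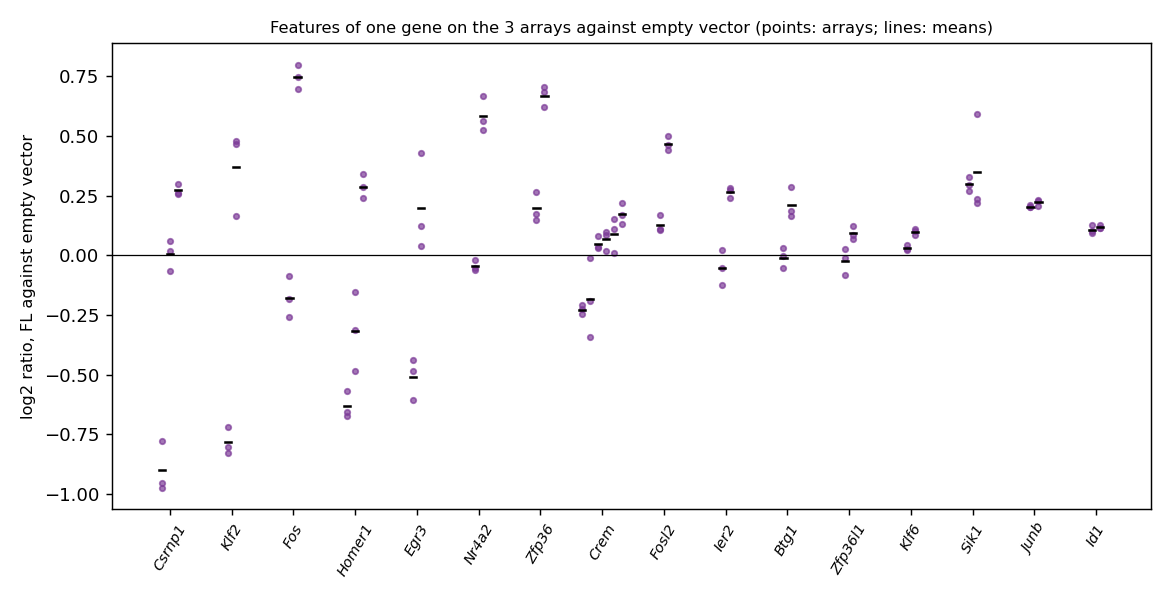
Log2 ratio of FL against empty vector for the separate features of the 16 members that have several. Features of Klf2, Csrnp1, Fos and Homer1 lie on both sides of 0.

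Further lists of the pathway were read beside the members, and beside all genes, of which 34.7% were called higher and 35.1% lower with FL, 35.7% and 36.1% with DTA, and 30.6% and 32.8% against empty vector. Of 22 other immediate early genes measured, 13 rose and 6 fell with FL and 15 rose and 4 fell with DTA. Bhlhe40, a clock-linked repressor, stood at 2.13 with FL and 1.38 with DTA, and Ppp1r15a, which reverses the block on translation after stress, at 1.43 and 1.39. Dusp6, a phosphatase of ERK, fell by 0.61 and 0.90. Against empty vector 15 of 23 rose and 3 fell, none past 1.5-fold, with Myc at 0.35 and Gadd45b at 0.31 among those that rose and Btg2 at -0.32 among those that fell. Of 14 delayed activity-regulated genes 6 rose and 3 fell with FL, 7 rose and 5 fell with DTA, and 4 rose and 6 fell against empty vector. Syt4, a vesicle protein, stood at 1.01 with FL and 1.04 with DTA, and the neurotrophin gene Bdnf at 0.89 with DTA, with a difference FL minus DTA of -0.72 (adjusted p = 0.00131).

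The counts of partners and upstream factors are to be read against the same shares of all genes. Of 17 AP-1 and CREB partners 10 rose and 3 fell with FL, 11 rose and 2 fell with DTA, and 7 rose and 4 fell against empty vector. The small Maf genes Mafg and Mafk, whose proteins pair like Maff, stood at 0.56 and 0.75 with FL and at 1.14 and 0.79 with DTA, and Mafg like Maff was lower with FL than with DTA (-0.57). Against empty vector Jdp2, a repressor of AP-1, fell by 0.65 and Crtc1, a CREB coactivator, by 0.55. Of 8 ternary complex, MRTF and MEF2 factors 3 rose and 3 fell with either construct, and 1 rose and 3 fell against empty vector. Of 18 upstream kinases and calcium sensors 9 rose and 4 fell with FL, 9 rose and 3 fell with DTA, and 6 rose and 3 fell against empty vector. Of 16 SRF and YAP targets of the actin cytoskeleton, 3 rose and 6 fell with FL, and 4 rose and 8 fell with DTA. Against empty vector 4 of them rose and 6 fell, and Tagln fell by 0.59.

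Of the markers of other cell types that were called, more were lower than higher in each comparison with controls, beside 69.8% of all genes called with FL, 71.8% with DTA and 63.4% against empty vector. With FL 1 of 7 glial, 1 of 8 fibroblast and 0 of 6 immune markers rose, and 2, 5 and 3 fell. With DTA 0, 1 and 1 rose and 2, 3 and 3 fell, and against empty vector none rose and 3, 4 and 2 fell. Of 11 markers of sympathetic neuroblasts 5 rose and 5 fell with FL, 5 rose and 3 fell with DTA, and 3 rose and 3 fell against empty vector. Since the values are ratios, a change in which cells were sorted and a change in RNA per cell cannot be told apart, and their part in the members' ratios was not tested.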

How the data were processed

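Ratios of 9 two-colour arrays were used, 3 for each comparison. Per the labels, Cy3 marked the CCAT sample and Cy5 the control, and the submitters analysed the scans with the Rosetta Luminator system. The deposited values were taken as log10 ratios. The base was inferred from a cap at exactly -2 on FL arrays of the first design. The second design showed no cap, and the same base was assumed for it. All array medians lay between -0.0046 and -0.0011. How background and dye were corrected, and which channel is the numerator, is not given in the sources used here, and no flags were used.

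The log10 values were multiplied up to log2. Gene symbols came from GEO's platform annotation (18218 of 22393 features with 1 symbol on the first design and 32042 of 43790 on the second), other features were dropped, and those of 1 gene were averaged. No channel intensities were used, so the number of arrays limits the precision.

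The test was that of limma 3.58.1 (lmFit and eBayes, R 4.3.3) and Benjamini-Hochberg adjustment over all named genes, with calls at an adjusted p under 0.05. A single fit held the FL and DTA arrays (4 residual degrees of freedom) and another the 3 empty-vector arrays (2). Members had a median SD of 0.065 (FL), 0.034 (DTA) and 0.041 (empty vector), and all genes one of 0.071, 0.041 and 0.041. The steps were tested on simulated data. Figures were drawn with matplotlib 3.10.9.

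The members and lists were chosen with earlier results of these data known. Values per array were given for members called at 1.5-fold in any comparison, other members by their means and counts, and up to 4 genes of a further list by smallest p. Promoters are those of RefSeq assembly GRCm38.p6. Alternatives were array centring, quantile normalization, the median over features or 1 feature per gene, ratios of 0 as missing, dropping genes that never reached 0.2 in size or lay on a value shared by many features, robust eBayes, treat at 1.5-fold, separate fits for FL and DTA, a block on the replicate number, and omission of each array in turn.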

Additional observations from a re-analysis of the deposited data

Results flagged for a closer look

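The ratio against untransfected cells differed between FL and DTA, by limma's test of the difference itself, for 16 of the 37 members. It was higher with FL for Ier3 (0.65), Egr1 (0.39), Btg1 (0.34), Egr2 (0.31), Ier5 (0.30) and Jun (0.17). It was lower with FL for Maff (-0.61), Fos (-0.34), Egr4 (-0.34), Fosb (-0.29), Junb (-0.28), Nr4a2 (-0.21), Fosl1 (-0.18), Zfp36 (-0.15), Klf4 (-0.13) and Ier2 (-0.13). All are differences of log2 ratios, FL minus DTA, with adjusted p of 0.000609 to 0.0487. Of all genes 34.2% were called by the same test. The FL and DTA arrays did not overlap for any of the 16, which were called on these same arrays, so this adds no support. Over all genes the arrays did not overlap for 26% with FL above and 24% with FL below. Whether 1 control RNA served both sets of arrays, and whether dye effects were equal on them, was not tested.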

How the results depend on the processing

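The counts of members called were 30 with FL, 32 with DTA, 16 for FL minus DTA and 28 against empty vector, and those past 1.5-fold were 11, 13, 2 and 1. They stayed within 1.5 times of these under array centring, the features' median, robust eBayes, and with zero ratios or shared values left out, as did those of FL and DTA with each group fitted alone. Limma's treat against 1.5-fold called 8 with FL, 7 with DTA and 0 for FL minus DTA and against empty vector, the same numbers under the 1.5-fold rule. Its unadjusted counts were 10, 12, 0 and 1. Treat asks for evidence beyond 1.5-fold, a stricter question. Shares of all genes under the alternatives were not taken, so these counts can be read only beside those of the main fit. Quantile normalization left 1 member past 1.5-fold for FL minus DTA (Ier3, with Maff at -0.58). With 1 feature per gene 7 members passed 1.5-fold against empty vector, a rule that keeps the feature of largest size and so favours such calls. Leaving out barely varying genes gave 18 calls there among the 19 members still tested. That filter kept genes by the size of the same ratios that were then tested, so a high share of calls was built in. Leaving out single arrays gave 26 to 32 calls with FL, 29 to 34 with DTA, 11 to 16 for FL minus DTA and 21 to 23 against empty vector, and past 1.5-fold 10 to 11, 13 to 14, 1 to 2 and 1 to 1.

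FL and DTA titles share replicate numbers, and with the number as a replicate block 30 members were called with FL, 32 with DTA and 12 for FL minus DTA, with 11, 13 and 2 past 1.5-fold. Ier2, Klf4, Nr4a2 and Zfp36 lost their call. Deviations of arrays of the same number correlated at -0.043, 0.091 and -0.0025, and those of different numbers at -0.082 to 0.069. Correlations of deviations from each group's own mean cannot settle whether arrays of the same number shared a culture, day or control RNA. No paired analysis was possible against empty vector because that comparison has 1 group.

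Signs turned mainly for members without a call. Over the arrays left out one at a time, FL ratios ran from -0.11 to 0.034 for Srf and from -0.12 to 0.038 for Crem. For FL minus DTA they ran from -0.059 to 0.081 for Nr4a3 (-0.0043 without FL replicate 1 and -0.024 without DTA replicate 2), from -0.15 to 0.00078 for Sik1, from -0.017 to 0.12 for Srf, from -0.021 to 0.0068 for Zfp36l1 and from -0.0036 to 0.042 for Klf10. Against empty vector they ran from -0.020 to 0.010 for Nr4a1 (0.0080 without replicate 2), from -0.028 to 0.021 for Crem, from -0.058 to 0.062 for Ccn2, from -0.00083 to 0.063 for Fosl1 and from -0.0095 to 0.036 for Srf. Nr4a1 was also at 0.0038 after centring and 0.00011 after quantile normalization, and Crem at 0.054 with the features' median. The 1 called member whose sign turned was Csrnp1 against empty vector, -0.21 (adjusted p = 0.00682) with the mean of its 3 features and 0.0044 with their median, since these 3 did not share a sign.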
